A study of Homo sapiens with 12 samples.

Results

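Notch ligand, receptor and target genes, 10 in all, were followed in A549 and PC9 cells that carried the homeobox gene HOXC6 or an empty vector. They were the ligand genes DLL4, DLL3 and JAG1, the receptor genes NOTCH1, NOTCH2 and NOTCH3, the target genes HES1 and HEY1, the DNA-binding partner RBPJ and the pathway inhibitor NUMB. The 10 genes were found by their Ensembl identifiers among the 12584 genes of the count table, and all 10 were present. The set was drawn up around DLL4, whose high level in A549-HOXC6 was already known from these libraries, so that level is given as a description with no test. The other 9 genes were chosen by their role in the pathway, and the question was whether the ligand's level in A549 went with a change in receptors or targets.

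In Notch signalling, a ligand on the surface of a cell binds a Notch receptor on its neighbour. The bound receptor is cut, first outside the membrane by an ADAM protease and then within it by gamma-secretase, and the freed intracellular domain enters the nucleus. There it joins the DNA-binding protein RBPJ and switches on genes such as HES1 and HEY1, which encode transcriptional repressors. DLL4 is best known from endothelial cells, where it restrains the sprouting of new vessels, while Notch in the lung epithelium takes part in the choice between secretory and ciliated fates.

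A549 and PC9 are human lung adenocarcinoma cell lines. A549 was grown in RPMI medium and PC9 in DMEM, so in any comparison between the lines, line and medium cannot be told apart. Each line was infected with the lentiviral vector pCDH-HOXC6 (A549-HOXC6 and PC9-HOXC6) or the empty vector pCDH-NEO (A549-NEO and PC9-NEO), and all 4 groups had been through neomycin selection, with 3 libraries of poly(A) RNA in each. All comparisons were therefore between stably infected, selected populations, and whether a population was a clone was not given in the sources used here. HOXC6 itself was not analysed here, so the vector labels could not be checked on the introduced gene. The epithelial markers EPCAM, KRT18 and CDH1, the 3 of 5 listed that were in the table, were present in every group. Their summed levels were 1324 to 6696 CPM (counts scaled by library size), most of it KRT18. EPCAM was low in A549, at 5.76 ± 1.12 CPM (mean ± SD) in A549-NEO and 5.31 ± 1.04 in A549-HOXC6. It had 196 ± 11.5 CPM in PC9-NEO and 157 ± 9.53 in PC9-HOXC6.

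The 12 libraries held between 1212053 and 3286577 counted reads, and 3 counts corresponded to 0.915 to 2.57 CPM. Libraries of the same group differed by more than counting error. The chi-square per degree of freedom was 1.58 to 4.26 over the 12 pairs. The highest values were for A549-HOXC6 replicate 3, at 4.26 against replicate 1 and 3.11 against replicate 2. Replicates 1 and 2 of that group gave 1.67. The replicates are described as independent, but whether they came from separate cultures was not given in the sources used here, so p-values measure only the spread between these libraries, which may be technical. Levels below are TMM-normalized CPM, scaled over all 12 libraries, and a gene was called where the adjusted p of edgeR's quasi-likelihood test with Benjamini-Hochberg adjustment was under 0.05.

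Promoter sequence is shown for DLL4, the ligand on which the set was built, and for HES1, a target with well-known RBPJ sites. For both genes these are the 250 bases before the RefSeq start of transcription, placed in GRCh37 by exact match and written 5′ to 3′ on the plus strand. The DLL4 stretch lies at chr15:41221288-41221537 and is 70% G and C, and its capitals mark CACGCG, a class C site of the kind that HES and HEY repressors bind. The HES1 stretch lies at chr3:193853687-193853936 and is 59.2% G and C, and its capitals mark GTGGGAA and TGGGAA, the core letters of the RBPJ site.
DLL4: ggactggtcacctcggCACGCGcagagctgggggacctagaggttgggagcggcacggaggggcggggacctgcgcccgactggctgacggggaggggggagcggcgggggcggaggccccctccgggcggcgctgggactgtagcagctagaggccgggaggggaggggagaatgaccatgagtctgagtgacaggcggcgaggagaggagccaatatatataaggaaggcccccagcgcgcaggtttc
HES1: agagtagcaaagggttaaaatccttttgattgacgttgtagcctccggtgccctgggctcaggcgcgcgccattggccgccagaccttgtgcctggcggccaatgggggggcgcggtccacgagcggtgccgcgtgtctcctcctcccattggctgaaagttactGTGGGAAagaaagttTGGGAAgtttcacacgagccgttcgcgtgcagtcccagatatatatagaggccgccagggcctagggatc

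The GTGGGAA of HES1 began 85 bases before the start and the separate TGGGAA began 70 bases before it. The shorter motif is contained in the longer, and each was searched on both strands. Among 35116 promoters of the same length, 5.43% held GTGGGAA, 20.8% held TGGGAA and 9.72% held CACGCG. The HES1 stretch held CACGCG too, on the minus strand at 120 and 47 bases before the start, and CACGAG, another letter run of repressor sites, at 132 and 58 bases, none of them in capitals. In the DLL4 stretch, CACGCG began 234 bases before the start, while neither GTGGGAA nor TGGGAA was among its letters, and the homeobox core TAAT was also absent. TAAT was present in 47.4% of the promoters and was not in the HES1 stretch either. These matches describe letters in a 250-base window and nothing about binding.

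The receptor NOTCH3 was the most highly expressed of the 10 genes in all 4 groups when CPM was divided by the exon length in kilobases. Its level per kb was 30.0 ± 1.44 (SD, n = 3) in A549-NEO, 33.4 ± 0.568 in A549-HOXC6, 80.4 ± 1.72 for PC9-NEO and 90.9 ± 6.03 for PC9-HOXC6, and in every group its libraries stood clear of the next gene. That next gene differed by line. JAG1 followed in A549, at 16.6 ± 0.597 CPM per kb in A549-NEO and 14.9 ± 2.21 in A549-HOXC6, with libraries that overlapped those of NOTCH1 in both groups. HES1 followed in PC9, at 28.1 ± 3.53 CPM per kb in PC9-NEO and 38.0 ± 5.35 in PC9-HOXC6, and overlapped no other gene of the set. The lowest mean levels belonged to HEY1 in both A549 groups and to DLL4 in both PC9 groups. In PC9-NEO the libraries of DLL4 overlapped those of HEY1, so their order was not resolved.

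DLL4 held rank 9 of 10 in A549-NEO, at 0.419 ± 0.223 CPM per kb, where it overlapped HEY1. In A549-HOXC6 it held rank 6, at 7.92 ± 1.72 CPM per kb. There its libraries overlapped those of DLL3 (9.22 ± 0.360 CPM per kb), NUMB (7.91 ± 0.511) and NOTCH2 (7.82 ± 0.682), so the order of these 4 genes was not resolved. RBPJ had 1.16 ± 0.0685 CPM per kb in the same cells and HEY1 had 0.364 ± 0.0921.

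**Figure D1:**
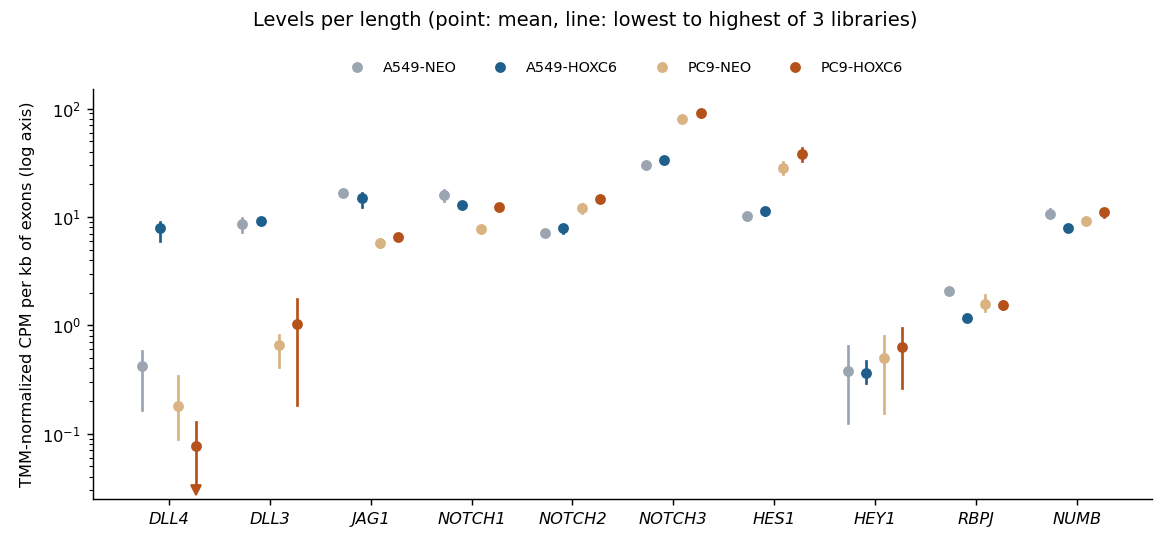
Level of each of the 10 genes in CPM per kb of exon on a log axis, with a point for the mean of each group, a line from its lowest to its highest of 3 libraries, and a downward triangle where a library is at 0. NOTCH3 is highest in all 4 groups, at 30.0 to 90.9 CPM per kb, and DLL4 moves from 0.419 in A549-NEO to 7.92 in A549-HOXC6. The mean of DLL4 is lowest in both PC9 groups, with libraries that overlap those of HEY1 in PC9-NEO.

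DLL4 (ENSG00000128917, GRCh37 chromosome 15, 41221538 to 41231271, plus strand) encodes Delta-like 4, a membrane-bound activating ligand. It had 8, 6 and 2 counts in replicates 1, 2 and 3 of A549-NEO (2.78, 2.41 and 0.786 CPM) and 118, 33 and 78 counts in A549-HOXC6 (42.9, 28.2 and 41.7 CPM). The lowest A549-HOXC6 library lay far above the highest A549-NEO library, so the groups did not overlap. The fitted difference was 4.18 on the log2 scale (SE 0.322), or 18.1-fold, and it stayed between 3.82 and 4.50 when any library of the comparison was left out. The A549-NEO level rests on few counts, which limits the precision of this fold. As the set was built on the DLL4 level in A549-HOXC6, these values describe it and are no test of it.

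DLL4 counts in PC9 were 3, 1 and 1 with the empty vector and 1, 0 and 2 with HOXC6. Neither PC9 group exceeded 3 counts in any library, so no fold is given. A fall or a small rise was not detectable at this depth. No PC9-HOXC6 library came near the 33 to 118 counts of the A549-HOXC6 libraries. Because these are bulk libraries, a change in the number of cells that express a gene and a change in RNA per cell cannot be told apart.

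DLL3 (ENSG00000090932, chromosome 19, 39989535 to 39999121, plus strand) encodes a Delta-like protein known mainly as an inhibitor of Notch within the cell and as a neuroendocrine marker. Its levels were 25.3, 23.3 and 18.9 CPM in A549-NEO and 23.3, 24.0 and 25.2 CPM in A549-HOXC6, and the groups overlapped. The log2 difference was 0.05 (SE 0.204, adjusted p = 0.873, edgeR's quasi-likelihood test). The PC9 counts of DLL3 were 2, 4 and 5 with the empty vector and 1, 4 and 15 with HOXC6, which was too few to pass the filter on low counts. The 15 counts of PC9-HOXC6 replicate 3 came from the deepest of the 12 libraries and corresponded to 4.57 CPM.

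JAG1 (ENSG00000101384, chromosome 20, 10618332 to 10654647, minus strand) encodes Jagged 1, a ligand of the Serrate type. Its levels were 156, 149 and 159.5 CPM in A549-NEO and 153, 147 and 115 CPM in A549-HOXC6, with replicate 3 of A549-HOXC6 below the other 5 libraries. The difference did not pass the test (log2 difference -0.20, SE 0.112, adjusted p = 0.154). With a correction for GC content and length it did pass, at -0.32 (adjusted p = 0.00977). Single libraries were left out only without that correction, where the difference lay between -0.31 and -0.065 and was called in none of the 6 fits. PC9 had 58.4, 53.9 and 49.2 CPM in PC9-NEO and 56.9, 64.9 and 60.4 CPM in PC9-HOXC6, which overlapped, and the log2 difference of 0.17 (SE 0.132) had an adjusted p of 0.350. Per kb, JAG1 was the most abundant of the 3 ligand genes in all 4 groups, and its A549 groups overlapped, as did those of DLL3. The set was built on the high DLL4 level in A549-HOXC6, so the separation of DLL4 there is no finding about the ligands.

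**Figure D2:**
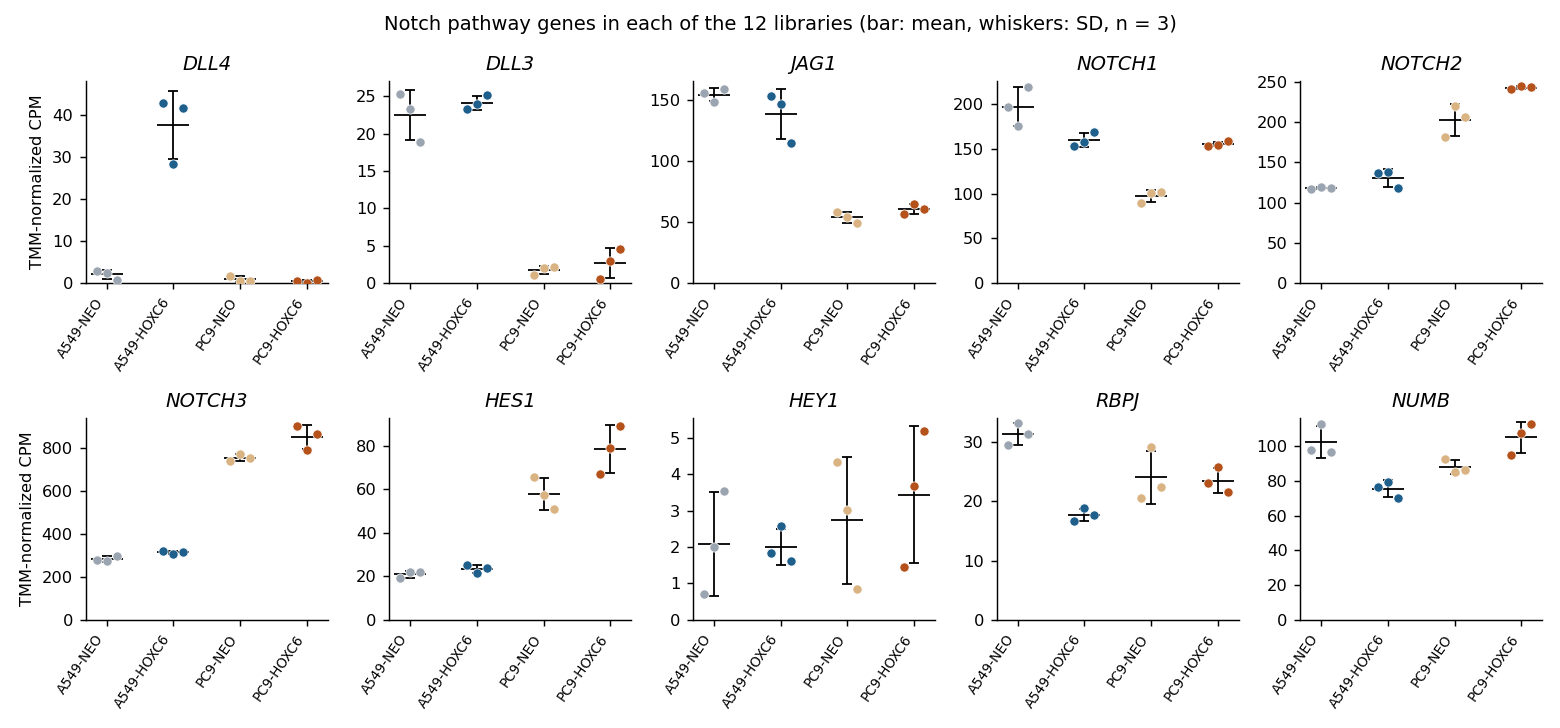
TMM-normalized CPM of each of the 10 genes in every library, in a panel per gene, with points for libraries, bars for the group mean and whiskers for the SD. The A549-HOXC6 libraries of DLL4, at 28.2 to 42.9 CPM, stand above all others, and NOTCH1 is lower in A549-HOXC6 than in A549-NEO but higher in PC9-HOXC6 than in PC9-NEO.

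NOTCH1 moved in opposite directions in the 2 lines. NOTCH1 (ENSG00000148400, chromosome 9, 139388885 to 139440500, minus strand) encodes a receptor with recurrent mutations in several cancers. Its levels were 197, 176 and 219.6 CPM in A549-NEO and 153, 158 and 169 CPM in A549-HOXC6, so that all A549-HOXC6 libraries were lower. It fell by 0.35 on the log2 scale (SE 0.102, adjusted p = 0.00751 by edgeR's quasi-likelihood test). Without A549-NEO replicate 3, its highest library, the difference was -0.27 and no longer passed (adjusted p = 0.0775).

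In PC9, NOTCH1 levels were 89.7, 100.2 and 102 CPM in PC9-NEO and 154, 155 and 159 CPM in PC9-HOXC6, again with no overlap. It rose by 0.68 on the log2 scale (SE 0.0944, adjusted p = 2.39e-06), or 1.60-fold. The A549 change minus the PC9 change was -0.98 (SE 0.142), with an adjusted p of 2.00e-06 for the interaction term. NOTCH1 was higher in A549-NEO than in PC9-NEO, and the means of the HOXC6 groups were close, at 160 ± 8.11 CPM in A549-HOXC6 and 156 ± 2.49 CPM in PC9-HOXC6.

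NOTCH2 (ENSG00000134250, chromosome 1, 120454176 to 120643366, minus strand) encodes a receptor whose gene has near-identical partial copies (the NOTCH2NL genes), so its counts are uncertain to the extent that reads were shared with them. Its levels were 117, 119 and 119 CPM in A549-NEO and 137, 138 and 118 CPM in A549-HOXC6, which overlapped, and the log2 difference was 0.10 (SE 0.108, adjusted p = 0.489). PC9 had 181, 220.5 and 207 CPM in PC9-NEO and 241, 245 and 243 CPM in PC9-HOXC6. The PC9-HOXC6 libraries were all higher, and NOTCH2 rose by 0.26 (SE 0.0815, adjusted p = 0.0160). The call was lost with library size as the only scaling (0.18, adjusted p = 0.108) and without PC9-NEO replicate 1, the lowest library (0.19, adjusted p = 0.101).

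NOTCH3 (ENSG00000074181, chromosome 19, 15269849 to 15311806, minus strand) encodes a receptor best known from vascular smooth muscle. A549 had 276, 274 and 298 CPM in A549-NEO and 319, 308 and 315 CPM in A549-HOXC6. These groups did not overlap, but the log2 difference of 0.11 (SE 0.0861) did not pass the test (adjusted p = 0.333). PC9 had 741, 773 and 754 CPM in PC9-NEO and 905, 794 and 865 CPM in PC9-HOXC6. The PC9 groups did not overlap, and NOTCH3 rose by 0.18 (SE 0.0609, adjusted p = 0.0252). This small rise depended on the processing: it was -0.02 with the GC and length correction (adjusted p = 0.866), was not called by DESeq2 (adjusted p = 0.0531), and was lost in 4 of the 6 fits that each left out a library. Those 4 left out replicate 1 or 3 of PC9-NEO (adjusted p = 0.0655 and 0.0566) or replicate 1 or 3 of PC9-HOXC6 (adjusted p = 0.118 and 0.0509).

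RBPJ fell in A549 and was not called in PC9. RBPJ (ENSG00000168214, chromosome 4, 26165077 to 26436753, plus strand) encodes the DNA-binding protein through which all Notch receptors act. It had 29.5, 33.3 and 31.4 CPM in A549-NEO and 16.7, 18.8 and 17.7 CPM in A549-HOXC6, with no overlap. It fell by 0.88 on the log2 scale (SE 0.200, adjusted p = 9.01e-04), the largest fall among the 10 genes. The difference was -0.21 (adjusted p = 0.454) with the GC and length correction, which is taken up with the GC values below. PC9 had 20.5, 29.2 and 22.5 CPM in PC9-NEO and 23.2, 25.8 and 21.7 CPM in PC9-HOXC6, which overlapped, and the log2 difference was -0.05 (SE 0.204, adjusted p = 0.877). With the GC and length correction the PC9 difference was 0.51 and was not called (adjusted p = 0.0700, edgeR's quasi-likelihood test).

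NUMB fell in A549. NUMB (ENSG00000133961, chromosome 14, 73741815 to 73925323, minus strand) encodes an adaptor that promotes the removal of Notch receptors from the membrane and so dampens the pathway. It had 97.8, 113 and 96.7 CPM in A549-NEO and 76.8, 79.6 and 70.1 CPM in A549-HOXC6, with every A549-HOXC6 library lower. It fell by 0.49 on the log2 scale (SE 0.121, adjusted p = 0.00214), and the call held in all 6 fits that left out a library and with the GC and length correction (-0.47, adjusted p = 9.10e-04). PC9 had 93.0, 85.1 and 86.5 CPM in PC9-NEO and 95.0, 108 and 113 CPM in PC9-HOXC6, and although these did not overlap the log2 difference of 0.26 (SE 0.106) had an adjusted p of 0.0640. Without PC9-HOXC6 replicate 1 it was 0.34 and passed (adjusted p = 0.0348).

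HES1 rose in PC9, and its A549 difference did not pass the test. HES1 (ENSG00000114315, chromosome 3, 193853937 to 193856521, plus strand) encodes a basic helix-loop-helix repressor and is the Notch target most widely used as a readout. It had 19.1, 21.7 and 22.0 CPM in A549-NEO and 25.1, 21.4 and 23.5 CPM in A549-HOXC6. These libraries overlapped, and the log2 difference was 0.14 (SE 0.205, adjusted p = 0.630) in the same cells in which DLL4 stood 18.1-fold higher.

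PC9 had 65.4, 57.4 and 50.9 CPM of HES1 in PC9-NEO and 67.1, 78.9 and 89.1 CPM in PC9-HOXC6. The groups did not overlap, though the nearest libraries were close, and HES1 rose by 0.46 (SE 0.133, adjusted p = 0.00925). The call was lost with the GC and length correction (0.29, adjusted p = 0.114), without PC9-NEO replicate 3 (0.37, adjusted p = 0.0638) and without PC9-HOXC6 replicate 3 (0.34, adjusted p = 0.124). The RBPJ letters of the HES1 promoter are those printed above.

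HEY1 (ENSG00000164683, chromosome 8, 80674606 to 80680092, minus strand), another target gene and a repressor of the same class, was near the detection limit in all groups. In A549 it had 2, 5 and 9 counts with the empty vector and 5, 3 and 3 with HOXC6. In PC9 it had 8, 6 and 2 counts with the empty vector and 3, 5 and 17 with HOXC6. The groups overlapped in both lines. The filter on low counts removed it from every comparison, so a change in HEY1 was not tested. Only a large rise could have been seen at this depth.

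Counted without DLL4, 8 of the other 9 genes could be tested in A549, and 3 of them fell (NOTCH1, RBPJ and NUMB) and none rose. Across all 8771 genes tested in A549, 20.7% fell, 18.9% rose and 39.6% were called in either direction, against 37.5% of the 8 members. The median log2 difference of the 8 was -0.08, and that of all genes was -4.67e-04. In PC9, 7 could be tested and 4 rose (NOTCH1, NOTCH2, NOTCH3 and HES1) while none fell. Of the 8419 genes tested in PC9, 13.3% rose, 14.2% fell and 27.5% were called in either direction, and the median log2 difference was 0.26 for the 7 members and -0.00463 for all genes. With the GC and length correction, 3 members fell in A549 (JAG1, NOTCH1 and NUMB) and 2 rose in PC9 (NOTCH1 and NOTCH2). The PC9 count was also 2 without PC9-NEO replicate 1, PC9-NEO replicate 3 or PC9-HOXC6 replicate 3.

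**Figure D3:**
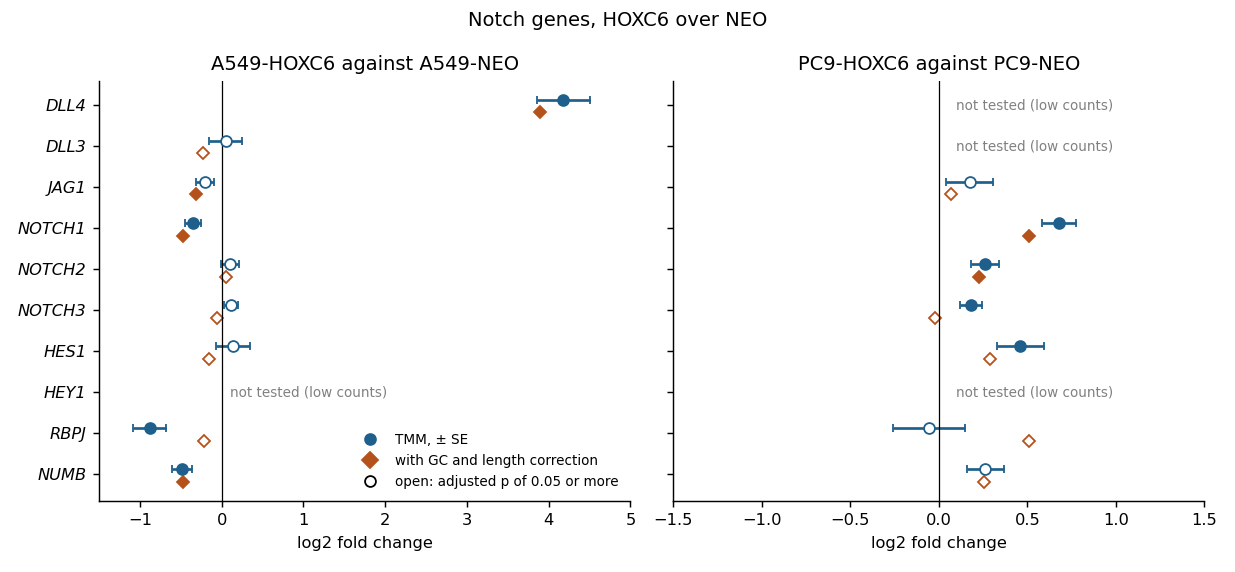
Log2 difference between HOXC6 and NEO for each gene that could be tested, in A549 and PC9, as circles with bars of 1 standard error and, with the GC and length correction, as diamonds. Open symbols did not pass the test. DLL4 at 4.18 in A549 is far above the others and is a description, since the set was built on it. NOTCH1 lies at -0.35 in A549 and 0.68 in PC9.

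The difference between the 2 lines in the HOXC6 effect was tested as an interaction term in a model of all 12 libraries. Culture medium differed with the line and is part of this difference. Of the 8 members other than DLL4 that could be tested, 3 differed, all with a lower change in A549, where 8.44% of 9229 genes were called in that direction and 19.4% in either. They were NOTCH1, as given above, NUMB (-0.70, SE 0.161, adjusted p = 0.00129) and RBPJ (-0.78, SE 0.283, adjusted p = 0.0456). NUMB and NOTCH1 kept the call in all 12 fits that left out a library. RBPJ kept it in 1 of the 12, and lost it under DESeq2 (adjusted p = 0.0661) and with the GC and length correction (-0.67, adjusted p = 0.0814). For HES1 the A549 change minus the PC9 change was -0.27 (SE 0.238, adjusted p = 0.470), so its rise in PC9 was not shown to differ from A549.

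The 2 lines, each in its own medium, also differed with the empty vector. Between the empty-vector groups, all 8 testable members were called, 5 higher and 3 lower in A549-NEO, beside 72.7% of 9076 genes (36.9% higher and 35.7% lower). DLL3 was 12.7-fold higher in A549-NEO (log2 difference 3.67, SE 0.354, adjusted p = 1.33e-11), against PC9-NEO libraries of 2, 4 and 5 counts. JAG1 was 2.97-fold higher (adjusted p = 4.23e-16) and NOTCH1 was 2.08-fold higher (adjusted p = 2.02e-12). On the other side, log2 differences were -0.74 for NOTCH2 (adjusted p = 1.74e-09), -1.38 for NOTCH3 (adjusted p = 6.25e-21) and -1.42 for HES1 (adjusted p = 7.53e-10). A549-NEO therefore had more JAG1, DLL3 and NOTCH1, and PC9-NEO had more NOTCH2, NOTCH3 and HES1. RBPJ (0.42, adjusted p = 0.0398) and NUMB (0.26, adjusted p = 0.0255) were slightly higher in A549-NEO, and both calls were lost with the GC and length correction (adjusted p = 0.210 and 0.103). The number of members higher in A549-NEO was 3 in place of 5 without A549-NEO replicate 2 or PC9-NEO replicate 3.

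The GC content of a gene's canonical transcript moved with the HOXC6 difference in both lines. Spearman's rho between the log2 difference and GC, taken over genes and so not over independent replicates, was 0.530 over 8712 genes in A549 and 0.527 over 8360 genes in PC9. RBPJ has 37.2% GC, and among the 1013 genes within 2 percentage points of it in A549 the median log2 difference was -0.61 and 52.2% fell. In PC9 the 960 genes near it had a median of -0.44 and 41.1% fell, while RBPJ was at -0.05, above that median. NOTCH1 has 63.5% GC, and of the 748 genes within 2 points of it in A549 only 5.21% fell, while their median was 0.22. In PC9, the 705 genes of like GC had a median of 0.18 and 27.8% of them rose, as NOTCH1 did by 0.68. HES1 has 50% GC, and of the 964 genes near it in PC9, 15.1% rose. DLL4 has 59.7% GC, and its log2 difference in A549 was 3.89 after correction, where the 1117 genes of like GC had a median of 0.23. The part of GC in these results was not tested beyond the corrected values given.

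**Figure D4:**
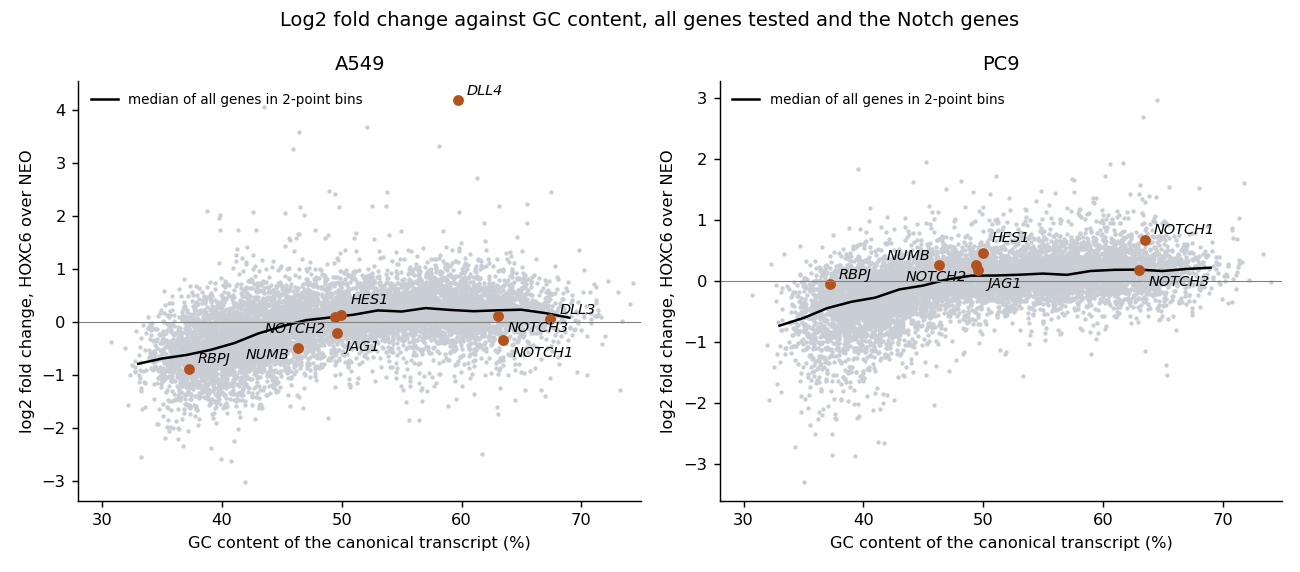
Log2 difference between HOXC6 and NEO against the GC content of the canonical transcript in percent, in A549 and PC9, with all tested genes as small points, their median in bins as a line and the members named. Spearman's rho across genes is 0.530 in A549 and 0.527 in PC9, RBPJ at 37.2% GC lies with the fall of low-GC genes in A549, and NOTCH1 at 63.5% GC lies below genes of like GC in A549.

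As DLL4 is a marker of endothelial cells, other endothelial genes were read in the same libraries. Of 12 listed, 9 were in the table, and their summed level was 2.01 to 5.50 CPM in A549-NEO, 4.28 to 21.9 in A549-HOXC6, 10.3 to 12.1 for PC9-NEO and 7.37 to 19.8 for PC9-HOXC6. In A549-HOXC6 replicate 3 some defining genes were present at low counts, with KDR at 6, FLT1 at 5, VWF at 4 and TIE1 at 4, and the leukocyte gene PTPRC was at 4. For VWF and TIE1 this was not particular to that library. VWF was at 4 counts in PC9-NEO replicate 3 and 5 in PC9-HOXC6 replicate 3, and TIE1 was at 4 in A549-NEO replicate 3. DLL4 had 1, 2 and 2 counts in those libraries. In A549-HOXC6 replicates 1 and 2, KDR, FLT1, TEK, TIE1, VWF, ERG and EMCN were all at 0 counts, while DLL4 had 118 and 33 counts. The other 2 endothelial genes were not all at 0 there, with ESAM at 19 and 5 counts (6.91 and 4.28 CPM, against 2.85 ± 1.43 CPM in A549-NEO) and ROBO4 at 2 and 0 counts. ESAM was higher in PC9-NEO, at 9.39 ± 0.606 CPM, where DLL4 had at most 3 counts. The part of these genes in the DLL4 result was not tested. Without A549-HOXC6 replicate 3 the DLL4 difference was 4.14, and the calls of NOTCH1 (-0.38), RBPJ (-0.87) and NUMB (-0.42) held. The leukocyte genes in the table, 2 of 5 listed, summed to 8.25 to 10.8 CPM in A549-NEO and 14.6 to 24.1 CPM in A549-HOXC6. Most of this was CD68, with a mean of 9.15 CPM in A549-NEO and 18.5 CPM in A549-HOXC6. PTPRC was at 0 counts in every A549-NEO library and in A549-HOXC6 replicates 1 and 2. All 5 listed fibroblast genes were in the table, and their sum was 67.1 to 68.7 CPM in A549-NEO and 52.8 to 76.0 CPM in A549-HOXC6. Nearly all of it was COL1A1, with a mean of 67.7 CPM in A549-NEO and 64.5 CPM in A549-HOXC6. COL1A2, DCN and LUM were at 0 counts in A549-NEO and at most 1 count in any A549-HOXC6 library.

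Beyond the 10 genes, 61 other genes of the pathway were listed by role, and 41 were in the table. In A549, 39 were tested, of which 10 rose, 8 fell and 21 did not pass the test. That is 46.2% called, against 39.6% of all genes, with a median log2 difference of -0.03. With the GC and length correction 7 rose and 10 fell. In PC9, 37 were tested, of which 6 rose, 5 fell and 26 did not pass, or 29.7% called against 27.5% of all genes, with a median of 0.03, and with that correction 3 rose and 6 fell. The balance of rises and falls thus turned with the correction in both lines. The HOXC6 effect differed between the lines for 11 of 40 pathway genes, or 27.5%, against 19.4% of all genes. The remaining listed genes, among them the ligand genes DLL1 and JAG2 and the receptor gene NOTCH4, were not analysed here.

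Of the 8 genes for receptor cleavage, 4 rose and 1 fell in A549. Beside these and the following counts by role, 18.9% of all genes rose and 20.7% fell in A549. In PC9 the shares were 13.3% and 14.2%. FURIN, the protease that matures Notch receptors, rose by 0.61 on the log2 scale (adjusted p = 7.50e-06), and the gamma-secretase subunit gene NCSTN rose by 0.58 (adjusted p = 1.70e-04). PSEN2 and APH1A rose by 0.66 (adjusted p = 0.00570) and 0.40 (adjusted p = 0.00277). PSEN2 lost the call without A549-HOXC6 replicate 1 (adjusted p = 0.0653). APH1A lost it with the GC and length correction (0.07, adjusted p = 0.616). ADAM10, which encodes the protease that cuts ligand-bound receptors, fell by 0.92 (adjusted p = 1.02e-06). ADAM10 fell in PC9 too, by 0.60 (adjusted p = 7.59e-05), but neither fall passed with the GC and length correction (-0.26, adjusted p = 0.0525 in A549, and -0.05, adjusted p = 0.776 in PC9). APH1A, another gamma-secretase subunit gene, was the other cleavage gene called in PC9, where it rose by 0.26 (adjusted p = 0.0124) and lost the call with that correction (adjusted p = 0.722), without PC9-NEO replicate 1 (adjusted p = 0.0512) and without PC9-HOXC6 replicate 3 (adjusted p = 0.0657).

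Among ubiquitin ligases and trafficking genes, 2 of 8 fell in A549 and none rose. MIB1, the ligase that readies Delta and Jagged ligands for signalling in the sending cell, fell by 1.61 on the log2 scale (SE 0.168, adjusted p = 2.14e-08), the only pathway gene past a log2 difference of 1 in A549, where 7.21% of all genes were past it. ITCH, a ligase that acts on Notch receptors, fell by 0.72 (adjusted p = 4.54e-04), a call lost with the GC and length correction (adjusted p = 0.305). In PC9, MIB1 fell by 0.68 (adjusted p = 0.00300), a call also lost with that correction (adjusted p = 0.263). NEURL1, another ligase for ligands, rose in PC9 by 0.69 (adjusted p = 2.05e-07), and DTX4 rose by 0.42 (adjusted p = 0.00503), which was not called after correction (adjusted p = 0.146) or without PC9-NEO replicate 2 (adjusted p = 0.0547).

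The glycosyltransferase gene LFNG, which encodes the enzyme that tunes receptors toward Delta ligands, rose in A549 by 0.79 (adjusted p = 5.24e-04), and 2 of the 4 glycosylation genes rose there while none of 4 was called in PC9. The other riser, POFUT1, was not called with the GC and length correction (adjusted p = 0.167) or in 4 of the 6 fits that left out a library. Among corepressor genes, 2 of 8 rose and 3 fell in A549, and 3 of 7 rose and 2 fell in PC9. The histone deacetylase gene HDAC1 rose in A549 by 0.74 (adjusted p = 3.41e-06). CIR1, an RBPJ corepressor gene, fell by 0.99 (adjusted p = 0.00140) in A549 and by 1.52 (adjusted p = 1.56e-05) in PC9, where it was the only pathway gene past a log2 difference of 1, as were 4.53% of all genes. NCOR1, which encodes a scaffold of repressor complexes, fell by 0.41 (adjusted p = 0.00279) in A549 and by 0.34 (adjusted p = 0.00481) in PC9, where the call was lost with the GC and length correction (-0.24, adjusted p = 0.0518). The corepressor gene TLE2 rose in PC9 by 0.44 (adjusted p = 6.92e-04), a call lost with the GC and length correction (adjusted p = 0.197).

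Of the coactivator genes, 1 of 6 rose (CREBBP) and 2 fell (SNW1 and KAT2A) in A549, and none of 5 was called in PC9. KAT2A lay just inside the threshold and was not called by DESeq2 (adjusted p = 0.118), without the filter on low counts (adjusted p = 0.0555) or in 5 of the 6 fits that left out a library. CREBBP was not called with the GC and length correction (0.22, adjusted p = 0.109) or in 2 of the 6 fits that left out a library, those without A549-NEO replicate 2 or 3. Of the further target genes, 1 of 5 rose in A549 (MYC, by 0.45, adjusted p = 8.18e-04) and 1 of 4 fell in PC9. The latter was CCND1, the gene of cyclin D1, which fell by 0.54 (adjusted p = 5.58e-08). Of the 36 pathway genes tested in both lines, 6 were called in both, each in the same direction, with ADAM10, MIB1, NCOR1 and CIR1 lower and APH1A and HDAC1 higher. That is 16.7%, against 14.7% of the 7954 genes tested in both. A shared direction was common over the whole table too, for 950 of the 1166 genes called in both lines. HDAC1 in PC9 was 0.20 (adjusted p = 0.0309), a call lost under DESeq2 (adjusted p = 0.0746) and with the GC and length correction (0.02, adjusted p = 0.864). With that correction CIR1 alone of the 6 was called in both lines.

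**Figure D5:**
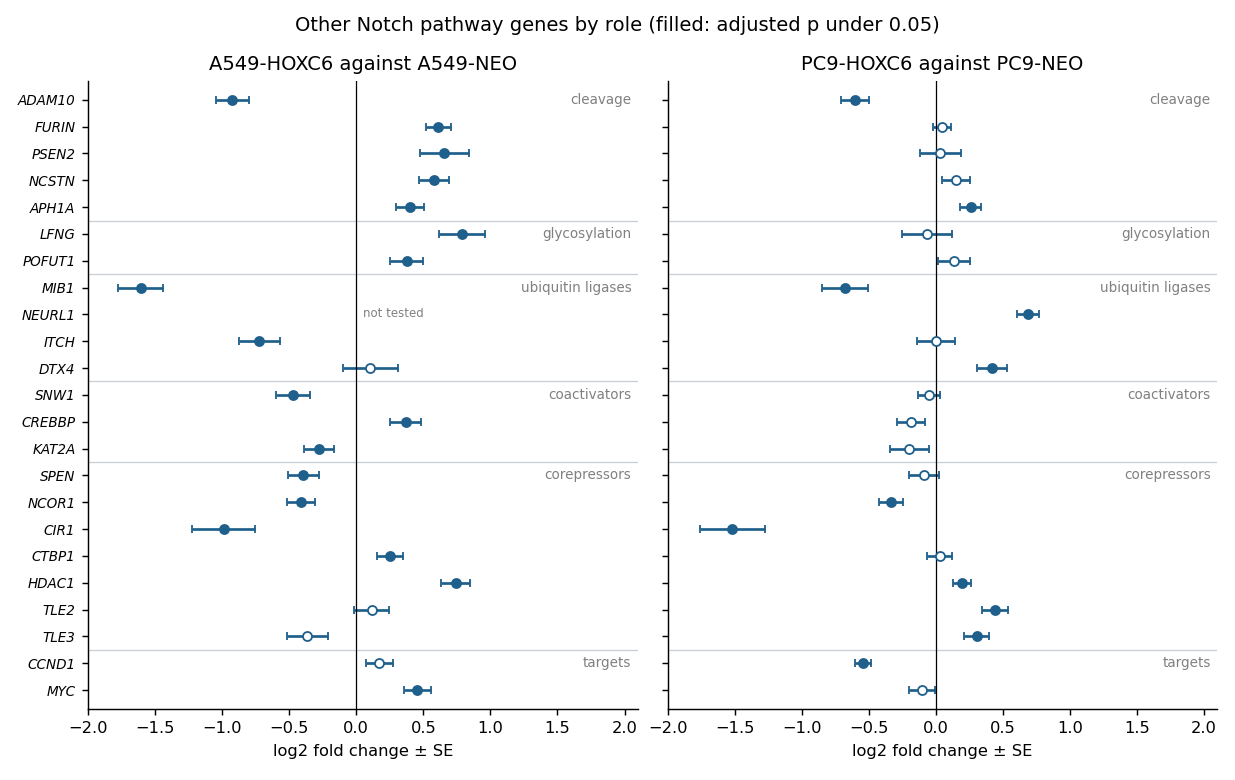
Log2 difference between HOXC6 and NEO of the listed pathway genes called in at least 1 line, in A549 and PC9, with bars of 1 standard error, grouped by role and filled where the adjusted p is under 0.05. MIB1 has the largest fall in A549, at -1.61, and CIR1 the largest in PC9, at -1.52.

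The 5 genes whose log2 CPM followed DLL4 most closely over the 12 libraries, out of 9228 genes compared, were EGLN1 (Pearson's r = 0.988), CSRP1 (0.975), LXN (0.974), CHAC1 (0.960) and MYL6 (0.958). These values are a description, since the 12 libraries share 4 groups and DLL4 was chosen for its pattern. EGLN1, which encodes an oxygen-sensing prolyl hydroxylase, had 90.4 ± 5.66 CPM in A549-NEO, 185 ± 5.47 in A549-HOXC6, 80.3 ± 6.42 for PC9-NEO and 80.7 ± 4.33 for PC9-HOXC6. CHAC1, which encodes a glutathione-degrading enzyme induced by stress, had 12.6 ± 1.55 CPM in A549-NEO and 85.0 ± 22.4 CPM in A549-HOXC6, and 11.5 ± 3.06 and 8.89 ± 2.27 CPM in the PC9 groups. All 5 had their highest mean in A549-HOXC6. CSRP1 and MYL6 were abundant in every group, with 402 ± 15.9 and 521 ± 30.4 CPM in A549-HOXC6 against 229 ± 11.2 and 359 ± 7.89 CPM in A549-NEO. None was a Notch ligand, receptor or target of the lists used here.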

How the data were processed

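Counts of reads per gene were deposited by the authors for 12 libraries, 3 per group, with no normalization. Per the labels, poly(A) RNA was made into directional libraries and sequenced in 150-base pairs. The submitters' processing notes name bcl2fastq 2.19, HISAT2 2.1.0, HTSeq 0.9.1, DESeq2 and GRCh37.p13, while the annotation release and the strand setting of the counting were not given in the sources used here, so overlapping genes (JAG1 and NUMB have short exon overlaps) may share reads. Of the table's rows, 1 incomplete row was left out, and 12463 of 12584 genes matched GENCODE v44lift37, which gave positions, exon lengths and the GC content of the canonical transcript.

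Each line was fitted separately with edgeR 4.0.16 (R 4.3.3), with filterByExpr, TMM factors and the quasi-likelihood test with Benjamini-Hochberg adjustment over all genes tested. The interaction used all 12 libraries and the line comparison the 6 empty-vector libraries. Alternatives were DESeq2 1.42.0, library size only, other filters, 12 libraries in 1 model, a replicate block, GC and length correction (mgcv 1.9.3) and each library left out. The fits were tested on simulated data. Members and lists were chosen with earlier results of these data known. All 10 members are named. Pathway genes are named where past the adjusted p and a log2 difference of 1, plus the 4 smallest p per line and direction, and MYC, CREBBP, SNW1, KAT2A, POFUT1, PSEN2 and TLE3 were named after their values were seen. Likeness to DLL4 used log2 CPM with a pseudocount of 1. A pathway gene that enters the counts is not reported here by name.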

Additional observations from a re-analysis of the deposited data

Results flagged for a closer look

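The HOXC6 effect differed between A549 and PC9, by the interaction term of edgeR's quasi-likelihood test with Benjamini-Hochberg adjustment over 9229 genes, for 3 members and 11 further pathway genes. Each value is the log2 change in A549 minus that in PC9. For the members it was -0.98 for NOTCH1 (adjusted p = 2.00e-06), -0.78 for RBPJ (adjusted p = 0.0456) and -0.70 for NUMB (adjusted p = 0.00129). Among cleavage and glycosylation genes it was 0.61 for FURIN (adjusted p = 1.50e-04), 0.68 for PSEN2 (adjusted p = 0.0441), 0.48 for NCSTN (adjusted p = 0.0232) and 0.90 for LFNG (adjusted p = 0.00921). For the ubiquitin ligase genes it was -0.89 for MIB1 (adjusted p = 0.00774) and -0.68 for ITCH (adjusted p = 0.0188), and MIB1 lost the call without PC9-HOXC6 replicate 3 (adjusted p = 0.0902). NCSTN and ITCH each lost it in 3 of the 12 fits that left out a library, PSEN2 in 8 and RBPJ in 11. DESeq2 did not call NCSTN (adjusted p = 0.0742), PSEN2 (adjusted p = 0.124) or RBPJ (adjusted p = 0.0661). Among coactivator and corepressor genes it was 0.60 for CREBBP (adjusted p = 0.00416), 0.59 for HDAC1 (adjusted p = 6.96e-04) and -0.62 for TLE3 (adjusted p = 0.00958). For target genes it was 0.76 for CCND1 (adjusted p = 3.31e-06) and 0.60 for MYC (adjusted p = 0.00188). NOTCH1 fell in A549 and rose in PC9.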

How the results depend on the processing

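Of 1694 values under alternatives for 105 results, 1515 kept their direction and call or moved little, 132 lost the call, 9 gained it, 3 reversed and 35 moved. Of 4 members called higher in PC9, 2 were called with library size only and with the GC and length correction, and 2 to 4 when a library was left out. Of 5 higher in A549-NEO than in PC9-NEO, 3 were called under DESeq2, with library size only, with the GC and length correction (with or without the replicate block) and with 12 libraries in 1 model, and 3 to 5 when a library was left out. The PC9 difference of NOTCH3 reversed to -0.019 with the GC and length correction and to -0.018 with the block added, and that of RBPJ to 0.54 with the block and correction together (adjusted p = 0.0449, edgeR). With the longest transcript as length, 6 of 10 members kept their rank in A549-HOXC6. The cause of these changes was not tested. Filtering for at least 10 counts in every library gave no value for DLL4.

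Pairing of the libraries by replicate number was not shown. Correlations of same-numbered deviations were small, at -0.0274, -0.00148 and 0.0377 in A549 and -0.00907, -0.0199 and 0.0447 in PC9. With the replicate block, 3532 genes were called in A549 (3469 without) and 2596 in PC9 (2316 without), and NUMB in PC9 was called (0.26, adjusted p = 0.0488), which made 5 members higher there. Few counts limit DLL4, DLL3 and HEY1, which reached at most 17 counts in any PC9 library.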
